A study of Mus musculus with 90 samples.

Results

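The genes described here encode the receptors through which steroid hormones act: Esr1 (estrogen receptor alpha, Entrez gene 13982), Esr2 (estrogen receptor beta, 13983), Pgr (the progesterone receptor, 18667), Nr3c1 (the glucocorticoid receptor, 14815), Nr3c2 (the mineralocorticoid receptor, 110784) and Gper1 (a G protein-coupled receptor of the membrane that responds to estrogens, 76854). They were taken from the expression table by their gene numbers, not by their values, and are 6 of its 20414 genes. Apart from Gper1, all are nuclear receptors: they wait in a complex with heat shock chaperones, bind DNA after the hormone has bound them, and recruit coactivators to the genes they control. In the uterus estradiol acts mainly through Esr1 and raises Pgr, whose hormone in turn restrains the estrogen response, while Esr2 is known as the estrogen receptor of the granulosa cells of the ovarian follicle. Nr3c1 is active in nearly every cell. Nr3c2 binds aldosterone and glucocorticoids alike, so that its response also depends on Hsd11b2, the enzyme that inactivates glucocorticoids, and on Hsd11b1, which regenerates them.

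The DNA that such a receptor recognises is set largely by 3 residues of its first zinc finger, the P-box. The coding sequences around it are shown because they divide the receptors into those for estrogens and the others, with the 3 codons of the P-box in capitals. All lie in coding exons of GRCm38, Esr1 at chr10:4746768-4746797 (plus strand, exon 4 of 10), Esr2 at chr12:76165459-76165488 (minus strand, exon 3 of 10), Pgr at chr9:8903708-8903737 (plus strand, exon 2 of 8) and Nr3c2 at chr8:77085627-77085656 (plus strand, exon 2 of 8).
Esr1: tgcGAAGGCtgcaagGCTttctttaagaga
Esr2: tgtGAAGGAtgtaagGCCttttttaaaaga
Pgr: tgtGGGAGCtgcaagGTCttctttaagagg
Nr3c2: tgcGGCAGCtgcaaaGTCttcttcaaaaga
Esr1 and Esr2 were identical at 24 of the 30 bases and differed at 2 of the 9 bases of the P-box codons, and Pgr and Nr3c2 were also identical at 24 of 30 and differed at 1 of 9. Between an estrogen receptor and either of the others, 20 to 23 of the 30 bases were identical and 5 of the 9 P-box bases differed.

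RNA was sequenced from 15 tissues of female C57BL/6 mice aged 10 weeks by the labels (the study's methods name C57BL/6J and another age), described there as kept under shared conditions with no other treatment or genotype, and the groups differed in the phase of the estrous cycle, estrus or diestrus, read from vaginal smears. Each tissue had 3 libraries per phase, 90 in all, made from 3 mice per phase and covering the reproductive organs (ovary, uterus), brain (cerebrum, hypothalamus), vessels (aorta, vein), brown and white adipose tissue (BAT, WAT), gut (stomach, duodenum), heart, skeletal muscle, liver, kidney and spleen. Levels are in FPKM, fragments per kilobase of transcript and sequencing depth, which allows genes of different length to be compared, and differences are on the log2(FPKM + 1) scale. In such bulk tissue, fewer cells of a type and less RNA per cell cannot be told apart.

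Depth was approximated at 8.23M to 17M reads (median 14.8M) in 89 libraries and at 0.0712M in estrus library 3 of BAT, where 12048 genes stood at 0 against 2404 to 4820 elsewhere. This library was set apart, and BAT was described from the other 5 libraries. By the median of the libraries, the markers of each named tissue or its main cell type were highest in that tissue, except that the list for aorta was higher in vein (628 against 514 FPKM). In 11 libraries of 10 tissues, all from estrus, a marker list of another tissue or cell type reached at least 100 FPKM and at least 10 times the median of the other libraries of the tissue. These were aorta 1, cerebrum 2, duodenum 1, hypothalamus 2, ovary 3, spleen 2, stomach 1 and 3, uterus 3, vein 3 and WAT 1 of estrus. In duodenum 1 the sum was 52191 FPKM for stomach genes, in hypothalamus 2 it was 31223 FPKM for pituitary genes, and in uterus 3 and ovary 3 it was 2755 and 1643 FPKM for oviduct genes. Uterus 3, named below by its oviduct genes, also held 766 FPKM of squamous epithelium genes, against at most 32.1 in the other uterus libraries. Its sum for the list of mammary epithelium was 165 FPKM, against at most 6.71. Several results that rest on such a library are given with and without it, but not all.

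Esr1 was graded over the tissues, with a mean of at least 1 FPKM in 10 of 15 tissues and a 328-fold range from uterus to duodenum. Its mean level ± SD (n = 6 libraries of both phases, 5 in BAT, here and for all receptors) was 59.6 ± 10.8 FPKM in uterus, 18.5 ± 4.11 in WAT, 12.1 ± 1.88 in vein, 9.90 ± 1.46 in aorta and 9.12 ± 6.90 in ovary. It was 7.42 ± 1.96 in BAT, 6.89 ± 0.428 in skeletal muscle, 5.46 ± 1.10 in liver, 4.15 ± 0.604 in hypothalamus and 1.85 ± 0.656 in kidney. The uterus thus held 3.22 times the level of the next tissue, and both fat depots, both vessels, muscle and liver stood above the hypothalamus. The remaining tissues were at 0.808 ± 0.135 in spleen, 0.725 ± 0.521 in cerebrum, 0.357 ± 0.304 in stomach, 0.202 ± 0.0747 in heart and 0.182 ± 0.0172 in duodenum. Of the 14 pairs of tissues that follow each other in this order, 4 differed by an exact two-sided permutation test of 6 against 6 libraries, whose smallest possible p is 0.00216. These were uterus over WAT (adjusted p = 0.0303, exact permutation), WAT over vein (0.0364), hypothalamus over kidney (0.0303) and kidney over spleen (0.0455). The other 10 pairs did not differ beyond their spread, so that vein, aorta, ovary, BAT, muscle, liver and hypothalamus had no resolved step between neighbours. Here and below, the order came from the same values, and the test took libraries as independent although the tissues came from the same mice. With permutation within each phase, which has fewer arrangements, no step differed.

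Against the mean of the other 14 tissues, Esr1 was called higher in uterus (3.78 on the log2 scale, SE 0.12), WAT (2.03), vein (1.42) and aorta (1.14), and lower in duodenum (-2.28), heart (-2.26), stomach (-2.10), cerebrum (-1.74) and spleen (-1.63), all with an SE of 0.12 and an adjusted p by limma of at most 6.83e-13. A call needed an adjusted p of at most 0.05 and a log2 difference of at least 1, and such calls were common over all 15233 genes tested. They were made for 16.7% of genes in uterus, 8.11% in WAT, 14.3% in vein and 10.1% in aorta in the higher direction. In the lower direction calls were made for 17.3% in duodenum, 15.5% in heart, 12.0% in stomach, 19.3% in cerebrum and 17.7% in spleen. The median gene itself stood apart in some tissues, at 0.40 in ovary, 0.29 in uterus and -0.78 in liver. When libraries were scaled to remove this, all 24 calls on the receptors kept their direction, but the set of calls changed. Of the 24, 22 were still called, those lost being of Gper1, and there were 32 calls in all. The calls on Esr1 all stayed, and it was then also called higher in BAT, liver and skeletal muscle and lower in kidney. The shares of all genes printed above are from the fit without scaling. Those of the scaled fit are not given, so its added calls cannot be set apart from other genes. Marker sums for white adipocytes ran from 1305 to 3511 FPKM in vein and from 216 to 1915 FPKM in aorta, against 6281 to 8914 FPKM in WAT. Aorta libraries also held 328 to 4811 FPKM of brown adipocyte genes, against 6191 to 7683 FPKM in BAT. For cardiomyocyte genes they held 218 to 2939 FPKM, against 11762 to 15904 FPKM in heart. Vein libraries held 442 to 1324 FPKM of brown adipocyte genes. Neuron genes summed to 340 to 734 FPKM in vein, against 1068 to 1223 FPKM in hypothalamus and 0.390 to 6.73 FPKM in aorta. The part of fat, heart or neuron RNA in the levels of these vessels, for Esr1 or other genes, was not tested.

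Esr2 had the opposite shape, with a single high tissue. In ovary its values were 35, 46.3 and 28.6 FPKM in estrus and 42.4, 34.2 and 31.8 FPKM in diestrus, a mean of 36.4 ± 6.68. All 6 ovary libraries exceeded every library of the other 14 tissues, whose highest was 1.5 FPKM. The next tissue means were 0.458 ± 0.0964 in hypothalamus, 0.360 ± 0.561 in aorta, 0.353 ± 0.0940 in cerebrum, 0.282 ± 0.132 in uterus, 0.238 ± 0.0714 in spleen and 0.237 ± 0.0383 in kidney. The ovary was 79.4 times the second tissue, and this step was the only one of 14 that differed (adjusted p = 0.0303, exact permutation). The lowest means were 0.152 ± 0.0591 in WAT, 0.148 ± 0.0502 in BAT, 0.140 ± 0.0756 in vein, 0.128 ± 0.0397 in duodenum, 0.127 ± 0.0625 in stomach, 0.117 ± 0.0372 in skeletal muscle, 0.0883 ± 0.0440 in liver and 0.0683 ± 0.0449 in heart.

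The aorta value of Esr2 rested on the first estrus library, at 1.5 FPKM against 0.05 to 0.2 in the other 5. In that library the sums for ovarian granulosa and theca genes and for luteal genes were 120 and 125 FPKM, against 2.61 to 4.52 and 5.89 to 10.8 in the others. It also held 4.10 FPKM of Pgr against 0.210 to 0.410 in the other aorta libraries, and the part of ovarian RNA in these values was not tested. Esr2 was called higher in ovary (4.95, SE 0.07, limma adjusted p = 2.24e-57), as 20.7% of genes were, and in no other tissue.

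The balance of the estrogen receptors was therefore tissue-specific. Esr1 exceeded Esr2 in every library of uterus, where the ratio ran from 99.7 to 672 with a median of 194, and in WAT, where its median was 110. In ovary the ratio was below 1 in all 6 libraries, with a median of 0.190 and a range of 0.123 to 0.810. Liver, a tissue with well-known responses to estrogen, had 38.8 to 178 times more Esr1 than Esr2, whereas it was 1.19 to 3.54 in cerebrum and 1.00 to 2.00 in duodenum, where neither gene reached 2 FPKM in any library.

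Gper1, the membrane receptor, was low in most tissues and uneven between libraries. Its means were 4.96 ± 2.66 FPKM in stomach, 4.93 ± 5.66 in uterus, 3.21 ± 0.625 in vein, 1.44 ± 0.410 in WAT, 1.21 ± 0.125 in aorta, 1.14 ± 0.160 in hypothalamus and 1.07 ± 0.137 in cerebrum. The other tissues were below 1 FPKM, at 0.995 ± 0.338 in kidney, 0.865 ± 0.209 in heart, 0.805 ± 0.184 in ovary, 0.792 ± 0.244 in BAT, 0.498 ± 0.244 in skeletal muscle, 0.277 ± 0.159 in duodenum, 0.0850 ± 0.0575 in spleen and 0.0233 ± 0.0225 in liver. The first 3 tissues did not differ from their neighbours, and the step from vein to WAT was the only one of 14 that did (adjusted p = 0.0303, exact permutation). Gper1 was called higher in stomach (1.43, SE 0.17), uterus (1.11) and vein (1.09), where 11.8%, 16.7% and 14.3% of genes were called, and lower in liver (-1.08), where 36.3% were, with adjusted p by limma of at most 6.34e-08. The uterus and vein calls were lost when libraries were scaled by their median ratio (0.89 and 0.99), the uterus call also without replicate 2 of every group (0.54) and the vein call without replicate 1 (0.99). The annotation places the gene 3110082I17Rik over Gper1 and the libraries did not mark strand, so that reads of the 2 genes may not be separated.

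Pgr was concentrated in the uterus and the brain. Uterus had 45.9 ± 34.6 FPKM, 9.32 times the cerebrum at 4.92 ± 0.726, and hypothalamus followed at 4.79 ± 0.524. The uterus exceeded the cerebrum (adjusted p = 0.0303, exact permutation), the 2 brain regions did not differ, and hypothalamus exceeded ovary (0.0364). Ovary had 1.03 ± 1.63, vein 0.962 ± 0.485, aorta 0.935 ± 1.55, WAT 0.585 ± 0.568 and kidney 0.295 ± 0.0718 FPKM. Below these lay duodenum at 0.102 ± 0.0248, stomach at 0.0833 ± 0.0907, BAT at 0.0740 ± 0.0541, skeletal muscle at 0.0633 ± 0.0737, spleen at 0.0383 ± 0.0117, liver at 0.0117 ± 0.00753 and heart at 0.00500 ± 0.00837. Kidney over duodenum (0.0303) and spleen over liver (0.0455) were the other steps that differed, the latter between levels of few reads.

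The low mean of Pgr in ovary hid a library that stood apart. The values were 0.190, 0.390 and 4.35 FPKM in estrus and 0.550, 0.4 and 0.270 FPKM in diestrus, and the highest was the estrus library with 1643 FPKM of oviduct genes, against 2.64 to 43.4 in the others. Esr1 was also highest there, at 23.1 FPKM against 5.70 to 7.56 in the other 5 ovary libraries, while Esr2 was lowest, at 28.6 FPKM. The part of oviduct RNA in these values was not tested. Across tissues Pgr was called higher in uterus (4.48, SE 0.19), cerebrum (1.73) and hypothalamus (1.70), where 16.7%, 20.2% and 21.8% of genes were called, with adjusted p by limma of at most 1.58e-12. It was called lower in heart at the limit (-1.0, SE 0.19, adjusted p = 2.69e-06 by limma), a call that was lost without replicate 1 or 2 of every group (-0.98 each) and in 3 further alternatives.

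**Figure D1:**
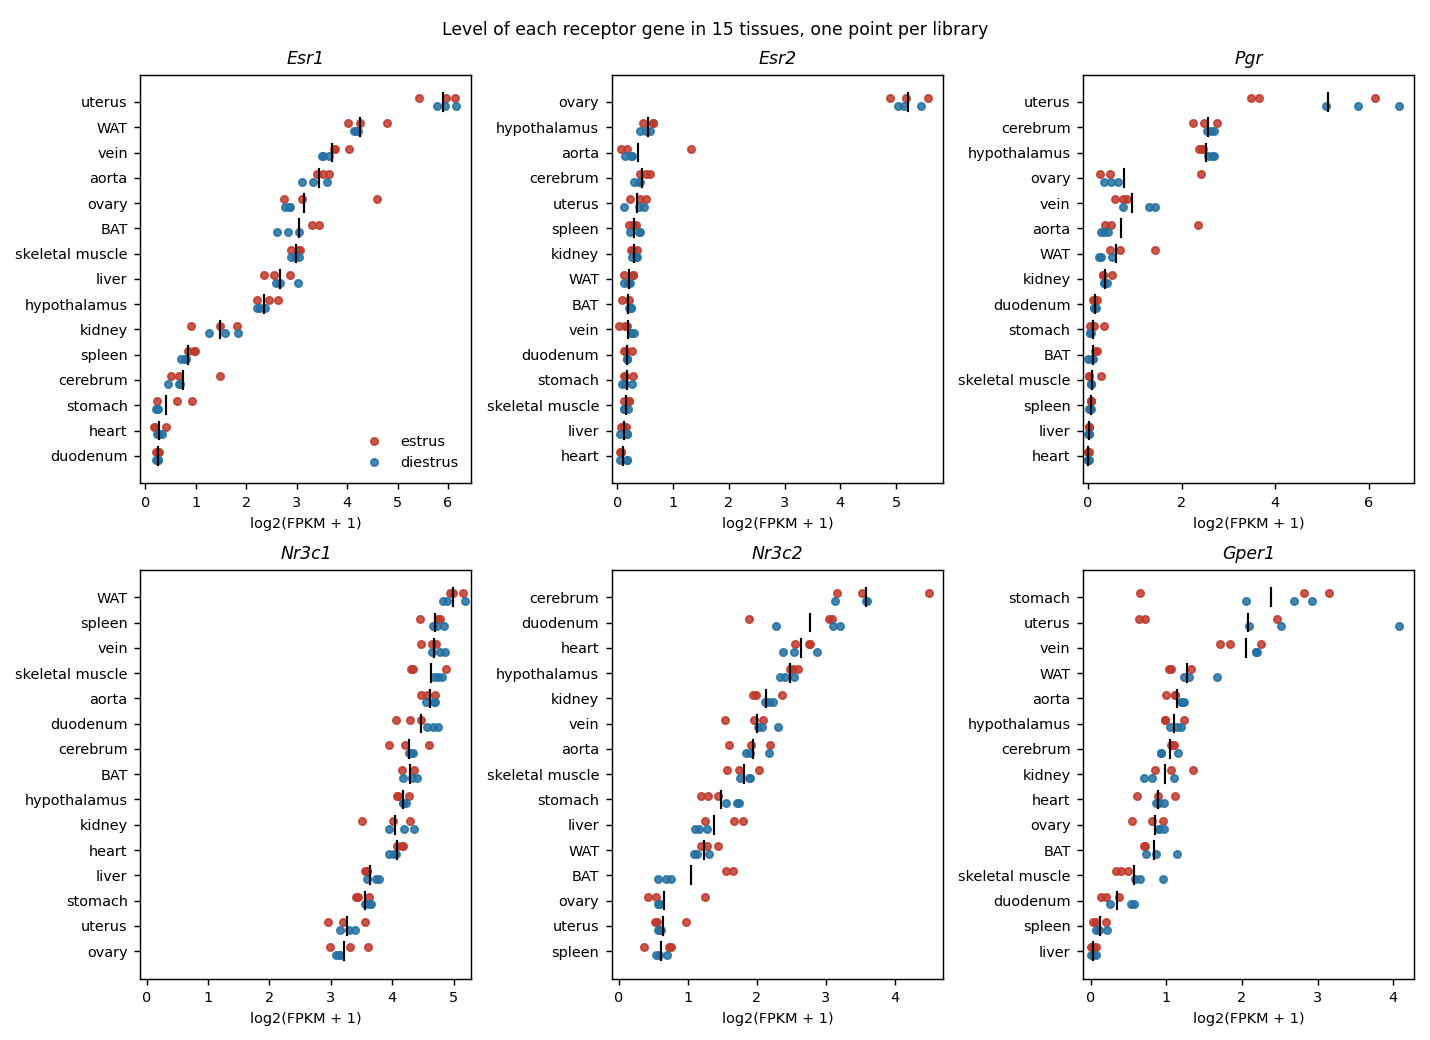
Level of the 6 receptor genes in 15 tissues, as log2(FPKM + 1), with a point for each library (red estrus, blue diestrus), a bar for the mean of the log values, and tissues ordered by mean FPKM. Esr2 stands apart in ovary and Pgr in uterus, Esr1 falls in steps from uterus at 59.6 FPKM to duodenum at 0.182 FPKM, and Nr3c1 is high in every tissue.

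Nr3c1 was expressed everywhere. Its means were 31.0 ± 3.15 FPKM in WAT, 25.1 ± 2.39 in spleen, 24.8 ± 2.32 in vein, 24.0 ± 3.98 in skeletal muscle, 23.4 ± 1.63 in aorta, 21.4 ± 3.76 in duodenum, 18.6 ± 2.81 in cerebrum and 18.5 ± 1.5 in BAT. They were 17 ± 0.938 in hypothalamus, 15.9 ± 0.986 in heart, 15.9 ± 3.31 in kidney, 11.5 ± 0.816 in liver, 10.8 ± 0.826 in stomach, 8.65 ± 1.37 in uterus and 8.35 ± 1.52 in ovary. The whole range was 3.71-fold, WAT over spleen was the only neighbouring step that differed (adjusted p = 0.0364, exact permutation), and the reproductive organs came last. The ovary was the only tissue with a call, lower by limma (-1.03, SE 0.07, adjusted p = 3.96e-20), as 5.85% of genes were, and this call was lost without replicate 2 of every group (-0.93). With libraries scaled by their median ratio the difference was -1.66, and uterus (-1.41) and skeletal muscle (1.34) were called as well. The uterus, at -0.98 in the values as deposited, was also called with a pseudocount of 0.1 (-1.05) and without replicate 1 of every group (-1.04). For these alternatives the share of all genes called is not given. Nr3c1 was the most abundant of the 6 genes in 13 tissues, making up 93.6% of their summed FPKM in spleen, while Esr2 led in ovary with 64.6% and Esr1 in uterus with 49.7%.

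Nr3c2 was most abundant in cerebrum, duodenum, heart and hypothalamus. Its means were 11.6 ± 5.03 FPKM in cerebrum, 6.17 ± 2.30 in duodenum, 5.30 ± 0.803 in heart, 4.58 ± 0.346 in hypothalamus, 3.42 ± 0.487 in kidney, 3.04 ± 0.662 in vein and 2.87 ± 0.585 in aorta. They were 2.53 ± 0.382 in skeletal muscle, 1.83 ± 0.438 in stomach, 1.64 ± 0.549 in liver, 1.37 ± 0.216 in WAT, 1.17 ± 0.800 in BAT, 0.612 ± 0.377 in ovary, 0.563 ± 0.197 in uterus and 0.533 ± 0.150 in spleen. Hypothalamus over kidney was the only step that differed (adjusted p = 0.0364, exact permutation), and the kidney, a classical target of aldosterone, was only the fifth. Nr3c2 was called higher in cerebrum (1.94, SE 0.11) and duodenum (1.07), where 20.2% and 14.2% of genes were called, with adjusted p by limma of at most 5.43e-13. It was called lower in spleen (-1.24), uterus (-1.21) and ovary (-1.18), where 17.7%, 6.47% and 5.85% of genes were called, with adjusted p by limma of at most 1.41e-14. The duodenum call was lost without replicate 2 or 3 of every group (0.89 and 0.88). The lowest value of Nr3c2 in duodenum, 2.68 FPKM, was in the estrus library with stomach genes, and the other 5 ran from 3.85 to 8.19 FPKM.

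Nr3c1 exceeded Nr3c2 in every library except the first estrus library of cerebrum, where Nr3c2 reached 21.4 FPKM and the ratio was 0.818. The median ratio was 1.71 in cerebrum, 2.98 in duodenum, 3.06 in heart, 3.81 in hypothalamus and 4.78 in kidney. It was 16.9 in uterus, 15.5 in ovary, 24.0 in WAT, 29.2 in BAT and 48.0 in spleen. The receptors of the mineralocorticoid and glucocorticoid pathways were thus closest in level in the tissues where Nr3c2 was high.

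The enzymes that set the ligand of these receptors had their own distribution. Hsd11b2 had 127 ± 31.6 FPKM in kidney, 57.6 ± 57.6 in uterus and 33.2 ± 14 in ovary, 2.53 ± 1.69 in duodenum and 2.35 ± 0.622 in stomach. It was below 1 FPKM in the other 10 tissues, down to 0.0150 ± 0.0164 in cerebrum and 0.0267 ± 0.0258 in hypothalamus, which were the first and the fourth tissue for Nr3c2. Hsd11b1 had 428 ± 49.4 FPKM in liver, 100 ± 42.0 in BAT, 44.0 ± 25.0 in aorta, 34.1 ± 6.53 in WAT, 30.5 ± 8.41 in kidney, 29.0 ± 14.6 in vein and 25.8 ± 4.71 in spleen. In the remaining tissues it was 11.3 ± 3.6 in cerebrum, 10.5 ± 1.64 in hypothalamus, 6.87 ± 0.993 in heart, 3.78 ± 1.07 in skeletal muscle, 2.35 ± 0.801 in duodenum, 2.28 ± 0.917 in stomach, 2.2 ± 1.97 in uterus and 1.27 ± 0.731 in ovary. Hsd11b2 exceeded Hsd11b1 in all 6 libraries of kidney and of ovary and in 5 of 6 of uterus, in 4 of 6 of duodenum and of stomach, and in no library of the other tissues. In both organs where Hsd11b2 was high outside the kidney, ovary and uterus, Nr3c2 was among the 3 lowest.

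**Figure D2:**
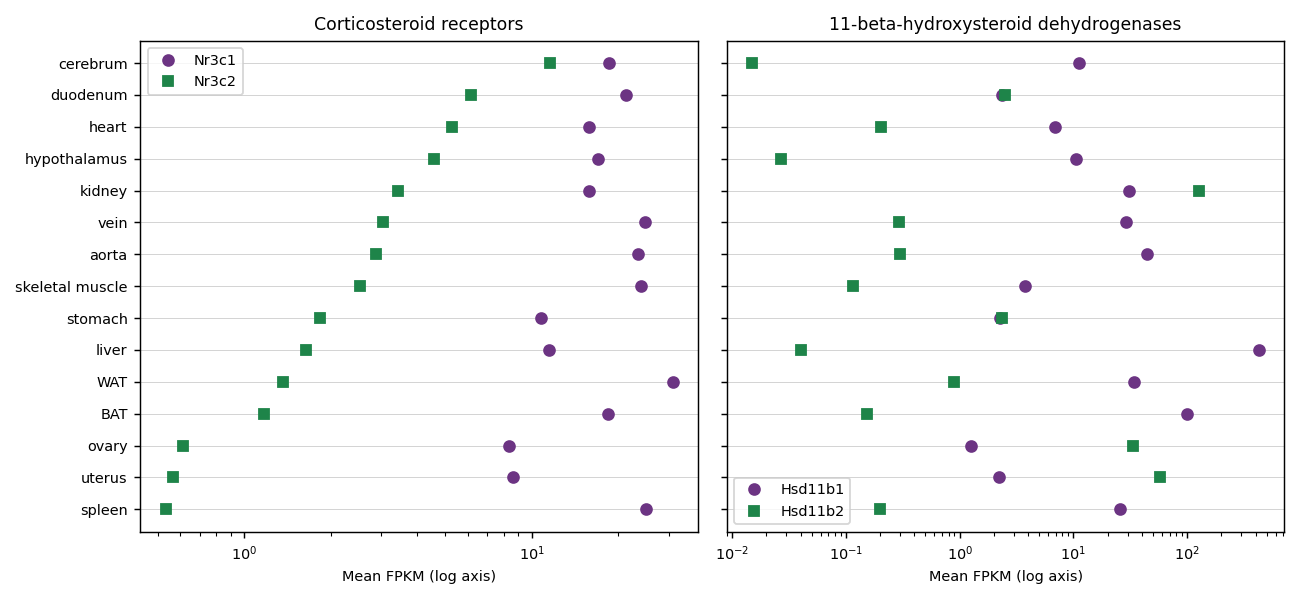
Mean FPKM on a log axis of Nr3c1 and Nr3c2 (left) and of Hsd11b1 and Hsd11b2 (right) in 15 tissues ordered by Nr3c2. Nr3c1 lies to the right of Nr3c2 in every tissue, and Hsd11b2 exceeds Hsd11b1 clearly in kidney, uterus and ovary.

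How this variation was divided between tissues, phases and libraries was described next. Over the 89 libraries, tissue accounted for 97.3% of the variance of Esr1, 98.7% of Esr2, 91.6% of Nr3c1, 91.1% of Nr3c2 and 90.8% of Pgr, beside a median of 92.6% over 15233 genes. Between phases within tissues lay 0.178% in Esr2, 0.707% in Esr1, 2.09% in Nr3c1, 2.69% in Pgr and 2.71% in Nr3c2, beside a median of 1.68%. These are shares of sums of squares, and spread between libraries alone places some of it between phases. They do not measure a phase effect, and the median share between libraries of a group was 5.45%. Gper1 was the receptor with the smallest share for tissue, 73.6%, and the largest for phase, 8.76%, but 17.6% of its variance lay between libraries of the same group. With a pseudocount of 0.1 its shares were 83.6%, 5.67% and 10.8%.

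**Figure D3:**
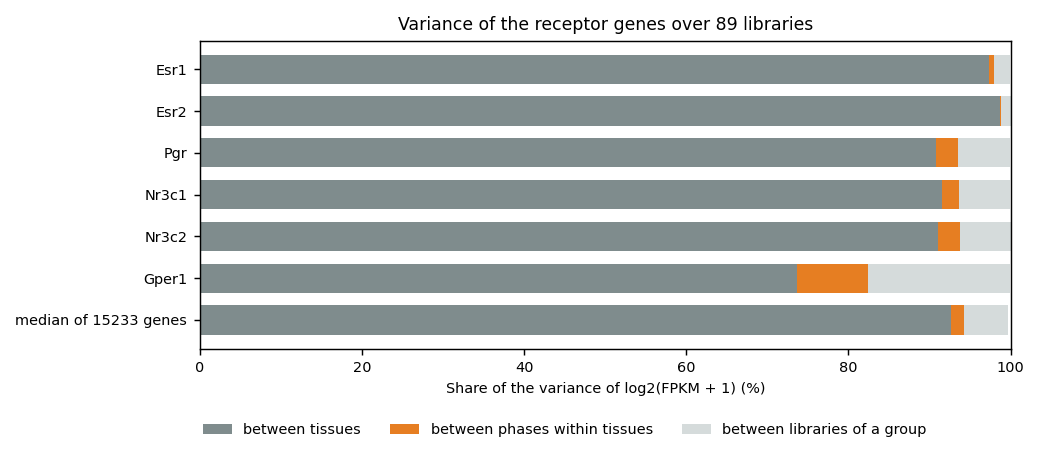
Share of the variance of log2(FPKM + 1) over 89 libraries, in percent, that lay between tissues (grey), between phases within tissues (orange) and between libraries of a group (light grey). The last bar gives the medians over 15233 genes, taken separately. Gper1 has the largest orange share of the 6 genes, 8.76%.

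The phases were then compared within each tissue, over the 49 of 90 pairs of a receptor and a tissue whose mean reached 1 FPKM. With limma and the same limits, none of the 49 pairs was called, 6 had an unadjusted p under 0.05 (8.88% of all tested pairs of a gene and a tissue did), and 8 had phases that did not overlap. The background was as sparse: 0.00108% of the 185580 pairs of a gene and a tissue were called, and in 16.1% the phases did not overlap, so that the 8 of 49 were near the background. The differences ran from -1.62 to 0.93 with a median SE of 0.15, and 18 were above and 30 below 0. A test of whether the phase difference varied between tissues called none of the 6 genes, while 4.32% of all genes were called. Its adjusted p by limma was 0.262 for Pgr, 0.288 for Nr3c2, 0.327 for Gper1, 0.677 for Esr1, 0.710 for Nr3c1 and 0.962 for Esr2, with unadjusted p above 0.05 for all 6. Without the 11 libraries that held markers of another tissue or cell type, Nr3c2 was called. These libraries were all from estrus, and leaving them out kept a single estrus library in stomach. The share of all genes called without them is not given here, so no conclusion is drawn from this call. The libraries are the replicates in these tests, and with 3 against 3 an exact permutation test cannot go below 0.1.

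**Figure D4:**
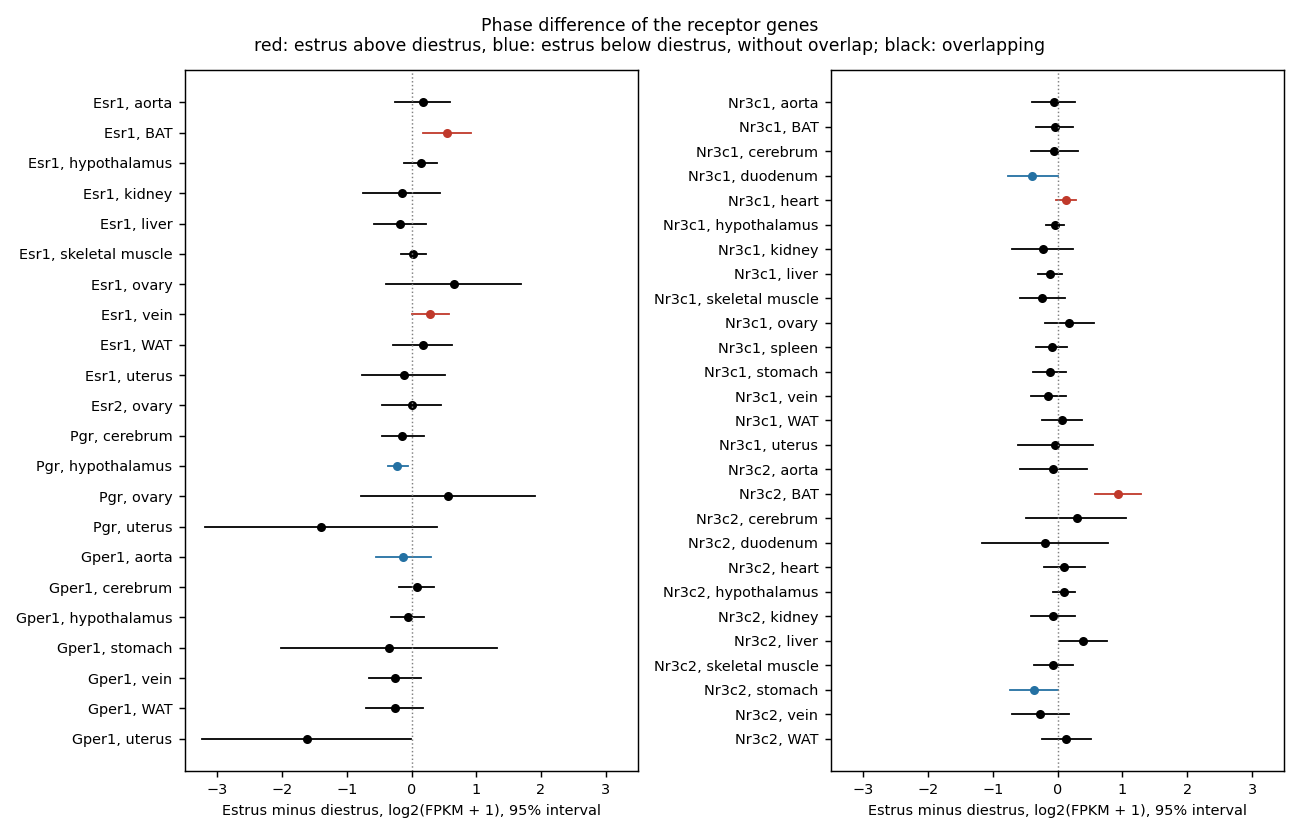
Estrus minus diestrus on the log2(FPKM + 1) scale with its 95% interval for the 49 tested pairs of a receptor gene and a tissue. Pairs whose phases did not overlap are red (estrus higher, 4 pairs) or blue (estrus lower, 4 pairs), and the widest intervals are those of Pgr and Gper1 in uterus and of Gper1 in stomach.

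In uterus, Esr1 was at 69.7, 61.1 and 41.9 FPKM in estrus and at 60.6, 70.8 and 53.8 FPKM in diestrus. The phases overlapped fully, and the lowest library was the estrus library with oviduct genes. The difference was -0.12 (SE 0.27, limma adjusted p = 0.932), and 0.09 without that library, with a 95% interval of -0.76 to 0.52 over all 6.

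Uterine Pgr was at 11.6, 68.8 and 10.2 FPKM in estrus and at 53.5, 98.7 and 32.7 FPKM in diestrus. Estrus libraries 1 and 3 were below all diestrus libraries, but the second was above 2 of them. The difference of -1.40 (SE 0.76, limma adjusted p = 0.897) had a 95% interval from -3.19 to 0.39, and it was -2.26 without the second estrus library (adjusted p = 0.2) and -0.94 without the third, which held oviduct genes (adjusted p = 1.000). When all libraries shared an estimate of the spread, the same difference was called (adjusted p = 0.00517). The median SE over all genes was 0.34 in uterus, the largest of the 15 tissues, and the shared estimate replaced this spread.

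Uterine Gper1, chosen for mention after its values were seen, was at 0.650, 4.51 and 0.550 FPKM in estrus and at 3.28, 15.9 and 4.71 FPKM in diestrus. The same libraries were low as for Pgr, and again the second estrus library overlapped diestrus. The difference was -1.62 (SE 0.68, limma adjusted p = 0.897), ranged from -2.22 to -1.03 with a library left out, and was called with the shared spread (adjusted p = 0.000255). The sums for the list of uterine stroma and epithelium were also lowest in estrus libraries 1 and 3, at 121, 532 and 138 FPKM in estrus and 456, 754 and 579 FPKM in diestrus, with all 5 of its genes above 0 in every library. Sums for the list of smooth muscle were 3236, 806 and 574 FPKM in estrus and 1076, 702 and 2311 FPKM in diestrus, and the part of tissue make-up in the Pgr and Gper1 values was not tested.

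**Figure D5:**
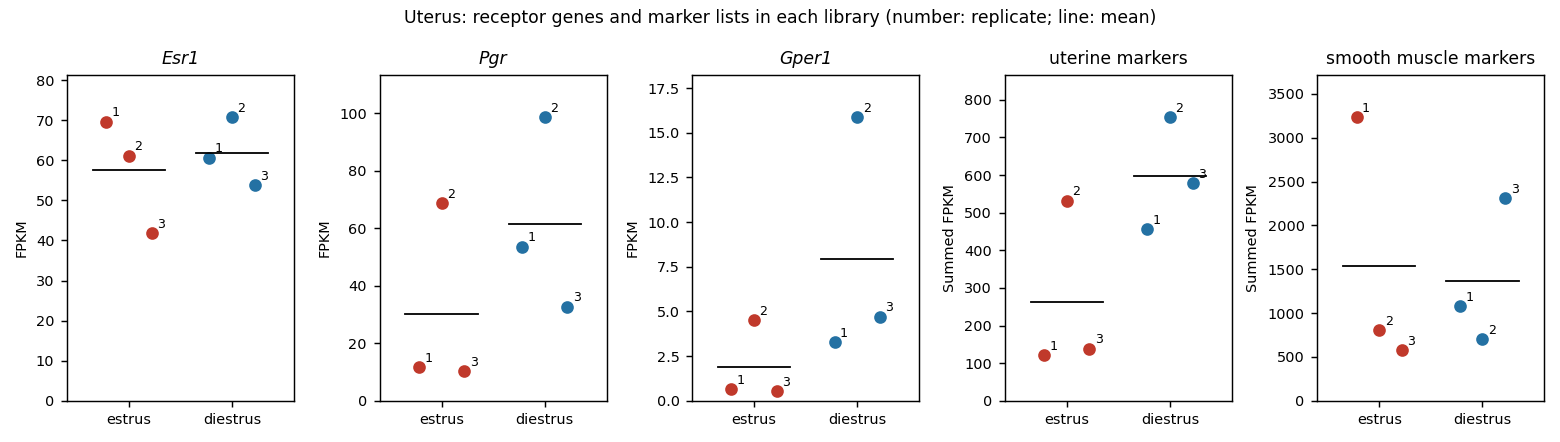
Uterus libraries of estrus (red) and diestrus (blue), numbered by replicate, with a line at the mean of each phase: FPKM of Esr1, Pgr and Gper1, and summed FPKM of 5 markers of uterine stroma and epithelium and of 4 smooth muscle markers. Estrus libraries 1 and 3 lie below all diestrus libraries for Pgr, Gper1 and the uterine markers, and not for Esr1 or smooth muscle.

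In ovary, Esr1 was at 7.56, 5.70 and 23.1 FPKM in estrus and at 5.77, 6.21 and 6.34 FPKM in diestrus, which overlap. The difference of 0.65 (SE 0.44, limma adjusted p = 0.849) fell to 0.09 without the library that held oviduct genes. For ovarian Pgr it was 0.56 (SE 0.56, adjusted p = 0.906 by limma), and without that library the gene was below the filter on low values. Ovarian Esr2 differed by 0.00 (SE 0.19, limma adjusted p = 1.000), with a 95% interval of -0.45 to 0.46 and values of the phases that interleaved.

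In hypothalamus, Pgr was at 4.18, 4.49 and 4.38 FPKM in estrus and at 5.48, 4.88 and 5.30 FPKM in diestrus. All estrus libraries were lower, a pattern that 19.6% of genes showed in either direction in this tissue. The difference was -0.22 (SE 0.07, limma adjusted p = 0.276). Hypothalamic Esr1 was at 4.50, 5.18 and 3.62 FPKM in estrus and at 3.64, 4.15 and 3.83 FPKM in diestrus, with its highest value in the library that held pituitary genes, and differed by 0.15 (SE 0.11, limma adjusted p = 0.593), or by 0.05 without it. For Pgr the difference without it was -0.24. Sums for the list of neurons ran from 1068 to 1223 FPKM in estrus and from 1139 to 1150 FPKM in diestrus.

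BAT gave the pairs closest to the limit. Nr3c2 was at 2.16 and 1.92 FPKM in estrus and at 0.490, 0.690 and 0.6 FPKM in diestrus, and differed by 0.93 (SE 0.14, 95% interval 0.58 to 1.28, limma adjusted p = 0.0511). Its adjusted p ran from 0.0242 to 0.167 over the alternatives, and its difference reached 1.63 with a pseudocount of 0.1. With means of 2.04 FPKM in estrus and 0.593 in diestrus, it reached the filter of 1 FPKM only through the estrus libraries. That this pair was tested was thus not independent of its direction. Esr1 was at 8.81 and 9.90 FPKM in estrus and at 6.06, 7.22 and 5.09 FPKM in diestrus, and differed by 0.55 (SE 0.15, limma adjusted p = 0.0847). Estrus was higher in both, but with 5 libraries the phases did not overlap for 49.4% of the genes of BAT. Sums for brown adipocytes were 7295 to 7544 FPKM in estrus and 6191 to 7683 FPKM in diestrus. Those for skeletal muscle genes were uneven, from 19.7 to 3846 FPKM over the 5 libraries (median 863), and are not given by phase here. The part of muscle RNA in these values was not tested.

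In the other pairs without overlap the differences were small. Esr1 in vein was at 12.5, 15.4 and 12.3 FPKM in estrus and 11.4, 10.3 and 10.4 FPKM in diestrus, and differed by 0.29 (SE 0.12, limma adjusted p = 0.412). Nr3c1 in heart was at 16.9, 17.1 and 15.9 FPKM in estrus and 14.4, 15.3 and 15.7 FPKM in diestrus, and differed by 0.12 (SE 0.07, limma adjusted p = 0.803). Estrus was the higher phase in both, with the nearest libraries less than 1 FPKM apart. Nr3c1 in duodenum was at 15.7, 18.5 and 21.1 FPKM in estrus and 25.8, 22.7 and 24.5 FPKM in diestrus, and differed by -0.39 (SE 0.16, limma adjusted p = 0.368), with its lowest value in the library that held stomach genes. It was -0.28 without that library and -0.18 with libraries scaled by their median ratio. Nr3c2 in stomach was at 1.71, 1.44 and 1.28 FPKM in estrus and 2.35, 1.92 and 2.29 FPKM in diestrus, and differed by -0.36 (SE 0.15, limma adjusted p = 0.672). Here estrus was the lower phase, as it was for Gper1 in aorta, at 1.17, 1.00 and 1.17 FPKM against 1.30, 1.34 and 1.29 FPKM, a difference of -0.13 (SE 0.17, limma adjusted p = 0.933). Estrus libraries 1 and 3 of stomach, 1 of aorta and 3 of vein were among those with markers of another tissue or cell type. The differences printed for these tissues are those with all libraries only. The phases did not overlap for 18.2% of genes in vein, 11.7% in heart, 26.6% in duodenum, 13.7% in stomach and 11.9% in aorta.

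The remaining pairs overlapped. Mean Esr1 was 10.5 FPKM in estrus and 9.29 in diestrus in aorta, 1.73 and 1.97 in kidney, 5.07 and 5.84 in liver, 6.98 and 6.81 in skeletal muscle, and 19.9 and 17.1 in WAT, and these differences lay between -0.18 and 0.17. Mean Nr3c1 was 22.9 and 23.9 in aorta, 18.2 and 18.8 in BAT, 18.4 and 18.8 in cerebrum, 16.8 and 17.3 in hypothalamus, 14.7 and 17.1 in kidney, 10.9 and 12.0 in liver, and 22.1 and 25.8 in skeletal muscle. It was 9.01 and 7.70 in ovary, 24.3 and 25.9 in spleen, 10.3 and 11.2 in stomach, 23.4 and 26.1 in vein, 31.6 and 30.4 in WAT, and 8.56 and 8.74 in uterus, so that 12 of its 15 differences were below 0, none of them called. Mean Nr3c2 was 2.79 and 2.95 in aorta, 13.3 and 9.93 in cerebrum, 5.79 and 6.55 in duodenum, 5.50 and 5.10 in heart, 4.78 and 4.39 in hypothalamus, and 3.32 and 3.51 in kidney. It was 2.00 and 1.27 in liver, 2.46 and 2.60 in skeletal muscle, 2.69 and 3.39 in vein, and 1.48 and 1.26 in WAT. The cerebral difference of Nr3c2 rested on the first estrus library, at 21.4 FPKM against 7.80 to 11.1 in the other 5. Pgr in cerebrum was 4.67 and 5.18 FPKM. Gper1 was 1.12 and 1.01 in cerebrum, 1.10 and 1.19 in hypothalamus, 2.86 and 3.56 in vein, and 1.21 and 1.66 in WAT. In stomach it was 6.06, 7.89 and 0.570 FPKM in estrus and 5.46, 6.62 and 3.16 FPKM in diestrus, and the low estrus library was the one with 1593 FPKM of squamous epithelium genes. The first estrus library, at 6.06 FPKM of Gper1, also held 900 FPKM of these genes. Named after its values were seen, the difference was -0.35 with all 6 libraries and 0.43 without the low library (limma adjusted p = 0.850 and 0.891). Without both it was 0.59, from a single estrus library.

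The genes around the receptors were described by 9 lists, of which none held a gene called by limma in any tissue or direction, with an unadjusted p under 0.05 in 124 of 1025 tests, beside 8.88% over all genes. Without the 11 libraries that held other markers 1 gene was called, Fkbp5 in duodenum. It is a co-chaperone of the receptors and a target of Nr3c1 and stands in 2 of the lists. The call came from 2 estrus and 3 diestrus libraries. How many of all genes were called there is not given, so no conclusion is drawn from it. In uterus, where the median difference over all genes was -0.07, progesterone targets had a median of -1.09 with 1 of 10 above 0, beside the low Pgr of 2 estrus libraries. Their most abundant members were Gata2, a transcription factor of the endometrium, with 61.2 ± 40.1 FPKM in estrus and 147 ± 57.4 in diestrus, and Nr2f2, a nuclear receptor of stroma and vessels, with 47.3 ± 7.24 and 68.4 ± 24.0 (SD, n = 3). Gata2 also led the list of pioneer and partner factors, with a median of -0.23 and 3 of 6 above 0, or -0.54 and 1 of 5 without the library that held oviduct genes. Estrogen targets had a median of 0.92 with 8 of 12 above 0, led by Lcn2, an iron-binding secreted protein, at 3989, 177 and 1245 FPKM in estrus against 195, 56.2 and 10.2 in diestrus, and by complement C3, at 2719, 60.1 and 298 FPKM against 44.8, 96.4 and 44.0. The second estrus library, which was high in Pgr, was the lowest estrus library in both, and overlapped diestrus. Their differences were 4.26 and 2.65 (limma adjusted p = 0.897 for both), and that of C3 was 1.21 without the first estrus library. Without the library that held oviduct genes the medians of progesterone and estrogen targets were -1.16 and 1.01.

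Chaperones of the receptors had a median of -0.55 in uterus with 0 of 11 above 0, led by Hspa8 at 1108 ± 667 FPKM in estrus and 1514 ± 539 in diestrus and Hsp90ab1 at 923 ± 407 and 1075 ± 176. Coactivators and corepressors had a median of -0.13, led by Ddx5 at 289 ± 20.3 and 301 ± 18 FPKM and Phb2 at 128 ± 64.3 and 143 ± 40.1. Membrane progesterone binding proteins had a median of -0.25, led by Pgrmc1 at 63.0 ± 16.6 and 94.5 ± 26.2 FPKM and Pgrmc2 at 30.8 ± 10.3 and 34.9 ± 8.68. All of these groups overlapped between phases. Glucocorticoid targets had a median of -0.46, with Sgk1, a kinase of ion transport, at 28.6 ± 7.86 and 87.1 ± 93.2 FPKM after Lcn2. Mineralocorticoid targets had a median of -0.61, and among them Atp1b1, a subunit of the sodium pump, was at 63.4 ± 18.7 and 219 ± 114 FPKM. Ligand converting enzymes had a median of 0.67, or 0.40 without the library that held oviduct genes, led by Hsd11b2 and by H6pd, which supplies Hsd11b1 with its cofactor, at 25.7 ± 21.5 and 17.3 ± 2.68 FPKM. Uterine Hsd11b2 was at 7.79, 39.7 and 1.47 FPKM in estrus and at 98.2, 46.5 and 152 FPKM in diestrus, without overlap, as for 7.91% of genes in uterus. The difference was -3.22 (SE 0.98, limma adjusted p = 0.897), and -2.24 without the third estrus library, which was the lowest and held oviduct genes, while Nr3c2 stayed between 0.440 and 0.960 FPKM.

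In ovary the medians of the lists lay between -0.35 for ligand conversion and 0.64 for estrogen targets, beside 0.01 over all genes. Without the library that held oviduct genes these were 0.00 and 0.12, and all 9 medians lay between -0.25 and 0.20. Hsd17b1, which makes estradiol in granulosa cells where Esr2 is known to act, had 205 ± 77.4 FPKM in estrus and 250 ± 41.8 in diestrus (SD, n = 3), and Akr1c18, which inactivates progesterone, had 92.7 ± 73.1 and 122 ± 99.6. The leading estrogen target was Greb1, a cofactor of Esr1, at 75.9, 102 and 97.7 FPKM in estrus and 134, 131 and 117 FPKM in diestrus. It was lower in estrus without overlap, a pattern of 13.7% of genes in either direction in ovary, and differed by -0.48 (SE 0.14, limma adjusted p = 0.777). Myc followed at 52.6 ± 11.9 and 56.3 ± 11.7 FPKM. Hspa8, Hsp90ab1, Ddx5, Phb2, Nr2f2, Runx1, Pgrmc1, Pgrmc2, Fst, Sgk1 and Fkbp5 were among the leading genes of the other lists, with limma adjusted p from 0.838 to 0.998.

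Glucocorticoid targets had their highest medians in other tissues, 1.29 in aorta with 9 of 10 above 0, 1.21 in duodenum with 8 of 9 and 0.77 in vein with 8 of 10, beside -0.05, -0.16 and -0.10 over all genes. Without the libraries that held other markers the medians were 1.09, 0.97 and 0.64. Fkbp5, named here after its values were seen, was at 18.38, 23.39 and 22.94 FPKM in estrus and at 4.29, 3.31 and 2.84 FPKM in diestrus in duodenum. The lowest estrus library lay above the highest diestrus library, and the difference was 2.34 (SE 0.20, limma adjusted p = 0.109). It was 2.44 without the library that held stomach genes (limma adjusted p = 0.0340), where the share of all genes called is not given. In aorta Fkbp5 was at 18.86, 6.4 and 18.87 FPKM in estrus against 2.55, 2.1 and 3.19 FPKM, a difference of 1.99 (SE 0.41, limma adjusted p = 0.933). In vein it was at 9.42, 14.06 and 26.36 FPKM against 6.08, 4.61 and 6.46 FPKM, a difference of 1.29 (SE 0.33, limma adjusted p = 0.412). Estrus was the higher phase in all 3 tissues without overlap, a pattern of 26.6% of genes in duodenum, 11.9% in aorta and 18.2% in vein in either direction, while mean Nr3c1 itself was lower in estrus in each of them.

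The genes most like each receptor over the 15 tissue means were sought among 15180 genes, as a description whose points share libraries. For Esr2, r was 0.996 to 0.997 for Cyp19a1 (aromatase), Zp1 and Zp3 (coat proteins of the oocyte), Txndc2 and Bpifb4, all highest in ovary. Since Esr2 was high in ovary alone, this r rests on that tissue and shows no more than a shared restriction to it. For Pgr, r was 0.908 to 0.975 for Dlx5 and Dlx6 (homeobox factors), Wnt7a (a Wnt ligand of the uterine epithelium), Rxfp1 (a relaxin receptor) and Gm266, all highest in uterus. For Esr1, which was graded over the tissues, r was 0.812 to 0.843, for Twist2, Gm14322, Lrrc36, Lbp and Irs1, also highest in uterus. Nr3c2 was most like Wipf3, Wsb2, Tom1l2, Dusp8 and Cltb (0.781 to 0.851), highest in cerebrum or hypothalamus, and Gper1 like Niban2, Hebp2, S100a16, Epb41l4a and Klk10 (0.847 to 0.902), highest in stomach or uterus. Nr3c1, with its narrow range, had no close match (0.699 to 0.742, for Tmem268, Zhx2, Sox6 and the globin genes Hbb-bs and Hba-a1). Among the receptors themselves, r was highest between Esr1 and Pgr, at 0.51, and lowest between Esr1 and Nr3c2, at -0.53.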

How the data were processed

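RNA of 15 mouse tissues in estrus and diestrus was sequenced on the BGISEQ-500 with a kit that does not mark strand. According to the methods and processing notes, the authors filtered reads with SOAPnuke, aligned them with Bowtie2 2.2.5 to GRCm38.p5 and estimated abundance with RSEM 1.2.8. The values deposited by the authors are taken to be FPKM, since their unit is not given in the sources used here: columns sum to 353706 to 623534, and to nearly equal totals once multiplied by gene length. Groups and replicate numbers came from the labels. Reads per library were approximated from the value steps of 931 short genes, which were whole to within 0.2 reads for 54.2% to 73.9% of values, so no count test was run, and small values carry unknown counting error.

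Phases were compared within each tissue with limma 3.58.1 (R 4.3.3, intensity trend) on log2(FPKM + 1), leaving out genes whose tissue mean fell below 1 FPKM, with Benjamini-Hochberg adjustment within a tissue. Calls needed an adjusted p of at most 0.05 and a log2 difference of at least 1, the study's limits, whose own count-based test was not used. Tissues were contrasted, and the interaction tested, in a fit of 89 libraries. Neighbouring tissues were compared by exact two-sided permutation, adjusted over the 84 pairs of all 6 receptors. The procedure was tested on simulated data. The receptors, the lists and the markers were chosen with earlier results of these data known. Named are the receptors, the 5 genes most alike, and, in uterus and ovary, the 2 most abundant genes of each list, except 1 of the mineralocorticoid targets, which, like the sequence of Nr3c1, is not reported here. Sequences are from GENCODE transcripts on GRCm38. Alternatives were another pseudocount, no filter, scaling, all 90 libraries, a replicate block, a shared spread, robust estimation, and leaving out libraries, of which leaving out the 11 with markers of another tissue or cell type was chosen after seeing the data.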

Additional observations from a re-analysis of the deposited data

Results flagged for a closer look

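For Nr3c1, every estrus library lay above every diestrus library in heart (log2 difference 0.12) and below in duodenum (-0.39). For Nr3c2, estrus lay above diestrus in BAT (0.93, with 2 estrus libraries, through which alone it passed the filter on low values) and below in stomach (-0.36). The opposite directions drew attention to these pairs, but the difference between the 2 tissues of a pair was not tested. The test over all tissues called neither gene. Without the 11 libraries that held markers of another tissue or cell type it called Nr3c2 (F = 2.64), but stomach then kept a single estrus library.

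In estrus library 3 of BAT, which was used in no comparison apart from the alternative with all 90 libraries, Esr1 stood at 17.13 FPKM, above the 5.09 to 9.90 FPKM of the other BAT libraries. At the approximated depth this corresponds to about 7.73 reads, and Esr2, Pgr, Nr3c2 and Gper1 stood at 0 there.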

How the results depend on the processing

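None of the 49 phase pairs was called under any alternative except the fit of all libraries with a shared spread, which called 2, Pgr in uterus (-1.40, adjusted p = 0.00517 by limma) and Gper1 in uterus. That fit replaced the large spread of uterus, and the SE of Gper1 there fell from 0.68 to 0.32. Uterine Hsd11b2, Lcn2 and C3 were called in it as well, with adjusted p by limma of 7.58e-09, 6.17e-05 and 0.0104. The share of all uterus genes called in it is not given, so these calls cannot be set apart from other genes. With a library left out, Esr1 in uterus ran from -0.27 to 0.09, the latter without estrus replicate 3, and likewise without the 11 libraries holding other markers. Esr2 in ovary, at 0.00, became -0.01 with scaled libraries, -0.18 without estrus replicate 2, and -0.03 and -0.08 without diestrus replicates 2 and 3, with a range of -0.18 to 0.16. Of the tissue contrasts, 13 higher and 11 lower calls became 26 and 42 with the adjusted p alone, and the lower calls became 22 with a pseudocount of 0.1. Without a replicate of every group there were 12 higher and 10 to 13 lower calls. How many of all genes were called in these alternatives is not given. The 12 neighbouring pairs that differed became 0 with permutation within each phase, 0 without any replicate and 0 without the 11 libraries. Permutation within each phase has fewer arrangements of the same libraries, and the other designs have smaller groups, both of which raise the smallest possible p. Without these libraries the interaction called 1 receptor, Nr3c2 (F = 2.64, adjusted p = 0.0349 by limma). Deviations of same-numbered libraries correlated from -0.522 to 0.440 between phases, so the numbers were not read as pairs, and with a replicate block 0 phase pairs, 23 of the 24 tissue calls and 0 interactions were called. No list gene was called with a pseudocount of 0.1 or the adjusted p alone. Without the 11 libraries there were 2 calls over the lists, both of Fkbp5 in duodenum (adjusted p = 0.0340 by limma). The share of all duodenum genes called there is not given. With 3 libraries per phase and no counts, differences below the printed intervals were not detectable, most of all in uterus.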
